A study of Mus musculus with 9 samples.

Results

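The genes described here are 32 that make, sense, move or store cholesterol, measured by RNA sequencing in the mediobasal hypothalamus (MBH), a base region of the brain with neurons that govern feeding. They were chosen by name for their place in the pathway, with earlier results of these data known. All 32 were present among the 15340 genes tested and among the 14592 named rows of the expression table that the authors deposited. Tissue came from male wild-type C57Bl/6 offspring at postnatal day 21 (P21), in 4 CTRL libraries from pups whose dams drank plain water and in 5 Emul libraries from pups whose dams drank water with the emulsifiers carboxymethyl cellulose (CMC, 1%) and polysorbate 80 (P80, 1%). Dams were treated before mating, through gestation and during lactation on a standard chow diet, and the study's methods give 4 control and 5 emulsifier litters for these samples. The pups stayed with the dam and her drinking water until weaning, so the design does not separate exposure through the dam from any direct intake late in lactation. The question put to these genes was whether maternal emulsifier consumption went with a different expression of the cholesterol pathway in the offspring MBH at weaning.

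Cholesterol does not pass the blood-brain barrier in useful amounts, and the brain therefore makes its own, most actively while oligodendrocytes lay down myelin in the weeks around weaning. Synthesis starts from acetyl-CoA, runs through mevalonate to squalene, closes the sterol rings and ends in a series of trimming steps. When sterol in the endoplasmic reticulum is low, the chaperone SCAP carries the transcription factor SREBP-2 to the Golgi for cleavage, and the freed factor binds promoters of nearly all synthesis enzymes together with the CCAAT-binding factor NF-Y or with Sp1; when sterol is high, the INSIG proteins hold SCAP back. Liver X receptors (LXR) respond to oxidized sterols and switch on genes of sterol export.

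CCAAT and GC boxes were found in promoter windows of nearly all synthesis enzymes that had one. These include Nsdhl, Hsd17b7 and Ebp, which differed little between the groups (below). A few are printed for enzymes among the 9 that were lower at an unadjusted 0.05 (below). Whether the boxes go with lower values was not tested. RefSeq start-site windows on GRCm38.p6, which run from 250 bases before to 50 bases after the start, were at hand for 26 of the 32 genes, and were searched on both strands for fixed letters; Fdps, Fdft1, Sqle, Stard4, Npc1 and Abcg1 had none in the table used. The CCAAT box (CCAAT or its reverse complement ATTGG) was present in windows of 14 of the 15 synthesis enzymes that had one, all except Acat2, and of 6 of the other 11 genes, against 41.1% of all 27025 genes with a window. A GC box (GGGCGG or CCGCCC), the core of an Sp1 site, was found in 14 of 15 enzymes, all except Pmvk, and in 8 of the other 11 genes, against 38.2% of all genes. The sterol regulatory element searched (TCACNCCAC) occurred in Hmgcs1 alone among the 26, against 1.44% of all genes, and the E-box CACGTG in 3 of 15 enzymes and 3 of the other 11 genes, against 8.09% of all genes. No window of these genes held the LXR repeat DR4 in its exact form, a pair of AGGTCA copies in the same direction spaced by 4 bases, which 0.0148% of all genes had. These matches describe letters in a window and do not show binding. The shares of all genes count every gene with a window, including genes not tested for expression here. Hmgcs1 is shown from 250 bases before its RefSeq start up to the start, on the plus strand at chr13:119690101-119690350, where GENCODE places no transcript of the gene; capitals mark 3 CCAAT boxes and the sterol regulatory element, which begins at position -137 from the start. Idi1, Cyp51 and Dhcr7, whose 2 groups did not overlap (below), are shown as each CCAAT box of the window in capitals with 10 bases on either side, on the strand of the gene, in stretches that GENCODE annotates as untranslated exon sequence of the same genes: Idi1 at chr13:8885551-8885575 and chr13:8885582-8885606 (plus strand), Cyp51 at chr5:4104712-4104736 (minus strand), and Dhcr7 at chr7:143830119-143830143 and chr7:143830155-143830179 (plus strand).
Hmgcs1 upstream: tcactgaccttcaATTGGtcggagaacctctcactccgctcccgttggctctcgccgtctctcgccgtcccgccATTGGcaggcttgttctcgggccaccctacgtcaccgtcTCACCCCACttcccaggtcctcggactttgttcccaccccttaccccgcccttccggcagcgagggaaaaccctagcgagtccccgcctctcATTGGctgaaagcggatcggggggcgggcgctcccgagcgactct
Idi1 first box: cctccagctgATTGGcgagcccggg
Idi1 second box: ccaaggtgccATTGGctggcgaccg
Cyp51 box: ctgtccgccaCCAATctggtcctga
Dhcr7 first box: actgccttcaCCAATcacaggacgc
Dhcr7 second box: tccacttccgATTGGtcgtctgtga

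Libraries held 28245360 (CTRL 3) to 46067534 (Emul 4) estimated counts, and the 32 genes drew between 51 counts (Nr1h3) and 69832 counts (Apoe) in a library. The 8 marker genes of the MBH were detected in every library and summed to 163.9 to 191.7 CPM (counts scaled to the size of the library) in CTRL and 152.0 to 215.5 CPM in Emul. Liver markers, included as a tissue that should be absent, summed to at most 2.20 CPM in any library.

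In Emul MBH most cholesterol genes lay slightly below CTRL, among them 17 of the 18 synthesis enzymes. Of the 32 genes, 29 had a lower mean in Emul, where 49.2% of all genes tested did, and the median log2 fold change (Emul over CTRL) was -0.10 against 0.0015 for all genes. The fitted change ran from -15.9% (Nr1h3) to 4.64% (Abca1). None of the 32 passed an adjusted p-value of 0.05 or of 0.10 (limma-voom with Benjamini-Hochberg adjustment over all genes), thresholds that 0.117% and 0.398% of all genes passed, and none reached the study's cutoff, a change over 1.5-fold with an unadjusted p under 0.05, which 0.469% of genes did. Before adjustment, 12 genes (37.5%) were lower at 0.05 and 0 were higher, against 8.99% and 6.84% of all genes. On the same counts edgeR's quasi-likelihood test and limma-trend also put 0 of the 32 past an adjusted 0.05, and DESeq2 put 3 there (Cyp51, Idi1 and Dhcr7, all lower). In 5 genes (15.6%) every Emul library lay below every CTRL library, against 3.8% of all genes, and no gene was separated the other way (2.8% of all genes). Because the genes were chosen with earlier results of these data known, the shares set against all genes are a description and not a test. All 12 mature oligodendrocyte markers were lower too, with a median log2 fold change of -0.26 (their levels are given below). Because no gene passed the limma-voom test after adjustment, the values below are described as lower or higher and not as changes.

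**Figure D1:**
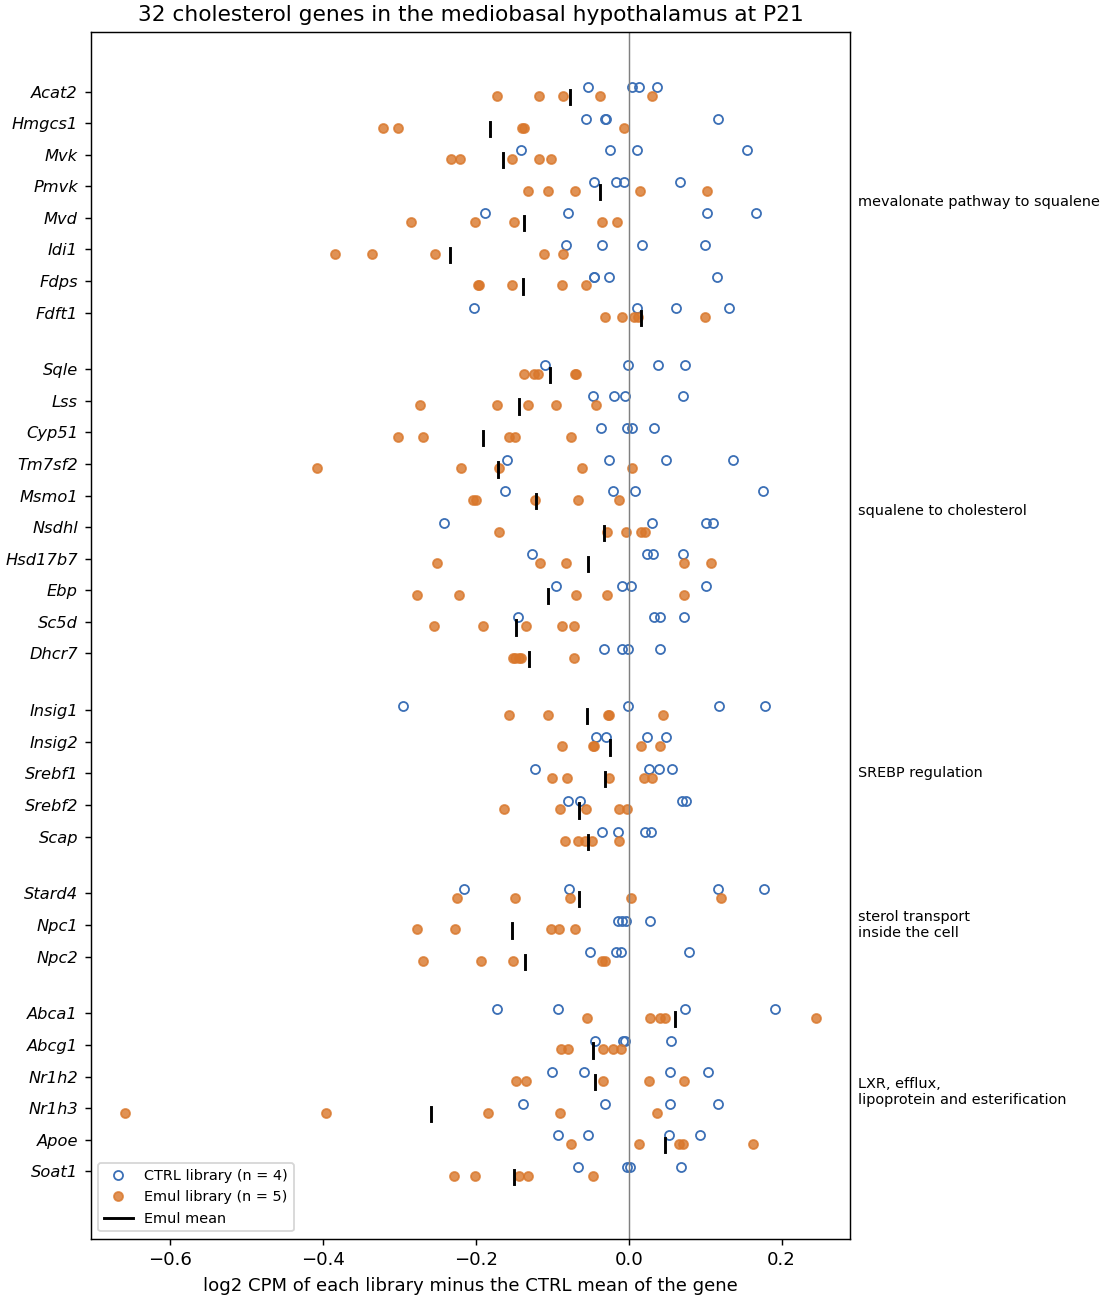
Each point is 1 library (CTRL open, n = 4; Emul filled, n = 5) and the x axis gives its log2 CPM minus the CTRL mean of that gene, with genes on the y axis grouped by role and a black bar at the Emul mean. The Emul mean lies left of 0 for 29 of 32 genes, and in Idi1, Fdps, Cyp51, Dhcr7 and Npc1 no Emul point reaches a CTRL point.

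On chromosome 13 of mm10 lie Hmgcs1 (119690379 to 119708260, plus strand) and Idi1 (8885501 to 8892451, plus strand), on chromosome 3 Fdps (89093588 to 89101959, minus strand), on chromosome 5 Cyp51 (4081145 to 4104746, minus strand) and on chromosome 7 Dhcr7 (143823145 to 143848410, plus strand), the enzymes with the most detail below. The first stretch of the pathway, from acetyl-CoA units to squalene, had 8 genes with a median log2 fold change of -0.14. Of these, 7 were lower in Emul and 4 (50%) were lower at an unadjusted 0.05, against 49.2% and 8.99% of all genes. Hmgcs1, the cytosolic HMG-CoA synthase that commits acetyl units to mevalonate, was the most abundant enzyme. It had log2 CPM values of 8.70, 8.52, 8.55 and 8.55 in CTRL 1 to 4 and of 8.26, 8.44, 8.44, 8.57 and 8.28 in Emul 1 to 5. Emul 1, 2, 3 and 5 lay below the whole CTRL range, while Emul 4 lay above CTRL 2, 3 and 4. Hmgcs1 thus differed by -0.18 on the log2 scale (adjusted p = 0.20, SE 0.061, exact permutation p = 0.056).

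Idi1, which isomerizes isopentenyl diphosphate into the starter unit of chain growth, had the lowest fold change of the synthesis enzymes. Its log2 CPM was 6.35, 6.17, 6.21 and 6.27 in CTRL and 5.86, 6.00, 6.14, 6.16 and 5.91 in Emul. The groups did not overlap, although CTRL 2 and Emul 4 nearly touched. The fitted log2 difference was -0.23 (adjusted p = 0.15, SE 0.063; exact permutation p = 0.032, where 0.0079 is the smallest that 4 against 5 libraries allow). For genes shown because their groups do not overlap, a small exact permutation p is largely fixed by that choice.

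Fdps, which joins isoprene units into farnesyl diphosphate, read 5.88, 5.74, 5.72 and 5.72 in CTRL and 5.57, 5.68, 5.61, 5.71 and 5.57 in Emul on the log2 CPM scale. Again no library overlapped, by a margin smaller than the spread within Emul. The fitted log2 difference was -0.14 (adjusted p = 0.19, SE 0.045; exact permutation p = 0.016). Mvk, mevalonate kinase, was also lower (log2 fold change -0.18, SE 0.061, adjusted p = 0.20), with CTRL 3 among the Emul values. The remaining members of this stretch gave smaller or noisier differences: Acat2, the cytosolic thiolase, -0.08 (SE 0.043), Pmvk, the next kinase, -0.04 (SE 0.051), and Mvd, the decarboxylase, -0.14 (SE 0.082). Fdft1, squalene synthase and the branch point into sterols, was the only enzyme of 18 that was not lower, with a log2 fold change of 0.01 (SE 0.057); it was slightly negative with library size scaling alone (-0.02) and without CTRL 3 (-0.05) or Emul 3 (-0.01).

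From squalene to cholesterol, all 10 genes were lower in Emul, with a median log2 fold change of -0.13. At an unadjusted 0.05, 5 (50%) were lower. Of all genes, 49.2% were lower and 8.99% were lower at that level. Cyp51, the lanosterol demethylase, had the smallest p-value of the 32 genes. It measured 6.78, 6.75, 6.71 and 6.74 log2 CPM in CTRL and 6.44, 6.59, 6.59, 6.67 and 6.47 in Emul. The groups were apart, with Emul 4 the nearest to CTRL and Emul 1 and 5 the farthest. The fitted log2 difference was -0.19 (adjusted p = 0.11, SE 0.045; exact permutation p = 0.016).

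Dhcr7, which reduces 7-dehydrocholesterol to cholesterol, had the smallest SE of the enzymes. Values were 5.64, 5.61, 5.63 and 5.68 log2 CPM in CTRL and 5.49, 5.57, 5.50, 5.49 and 5.50 in Emul. No library overlapped, and Emul 2 stood between the other Emul libraries and CTRL. The fitted log2 difference was -0.13 (adjusted p = 0.12, SE 0.033; exact permutation p = 0.016).

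Msmo1, the sterol C4-methyl oxidase and the most abundant gene of this stretch per length, was more variable. It gave 6.31, 6.34, 6.17 and 6.51 log2 CPM in CTRL and 6.13, 6.21, 6.27, 6.32 and 6.13 in Emul. The groups overlapped, since CTRL 3 lay below 3 Emul libraries. The log2 difference was -0.13 (adjusted p = 0.35, SE 0.062, exact permutation p = 0.15).

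Sqle, Lss and Sc5d were lower at an unadjusted 0.05 with at least 1 overlapping library. Sqle, squalene epoxidase and a slow step of the pathway, differed by -0.11 on the log2 scale (adjusted p = 0.21, SE 0.038), Lss, which closes the sterol rings to lanosterol, -0.14 (adjusted p = 0.18, SE 0.046), and Sc5d, which introduces the C5 double bond, -0.15 (adjusted p = 0.19, SE 0.050). Tm7sf2, a sterol C14 reductase, differed by -0.18 with a wider error (adjusted p = 0.32, SE 0.082). The C4-decarboxylating dehydrogenase Nsdhl (-0.05, SE 0.069), the 3-ketoreductase Hsd17b7 (-0.06, SE 0.071) and the isomerase Ebp (-0.09, SE 0.075) gave differences close to or below their SE.

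Summed, the 18 synthesis enzymes reached 1352.4, 1290.8, 1257.8 and 1321.8 CPM in CTRL 1 to 4 and 1099.8, 1170.1, 1193.7, 1249.0 and 1090.3 CPM in Emul 1 to 5. In these sums, scaled by library size alone, every Emul library was below every CTRL library, with Emul 4 and CTRL 3 the nearest pair. The log2 CPM values also carry TMM scaling between libraries. With it, the enzyme sum of Emul 4 lay above that of CTRL 3, so the groups overlapped. Emul 5 was below the CTRL mean in 18 of 18 enzymes and Emul 1 in 16, and these libraries held the lowest value of 7 and 6 enzymes, respectively. CTRL libraries also differed among themselves: CTRL 1 held the highest value of 8 enzymes and CTRL 4 of 5, whereas CTRL 3, the library of least depth, was below the CTRL mean in 17 of 18.

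The 5 genes of the SREBP switch were all lower in Emul by small amounts, with log2 fold changes between -0.07 and -0.03. None was lower at an unadjusted 0.05. Of all genes, 49.2% were lower and 8.99% at that level. Srebf2, which encodes SREBP-2, read 7.57, 7.71, 7.56 and 7.71 log2 CPM in CTRL and 7.58, 7.63, 7.62, 7.55 and 7.47 in Emul. The 2 groups were interleaved except for the highest pair, CTRL 2 and 4, and the lowest libraries, Emul 4 and 5. The log2 difference was -0.07 (adjusted p = 0.49, SE 0.044, exact permutation p = 0.23). Srebf1, whose products drive mainly fatty acid genes, read 6.30, 6.15, 6.33 and 6.32 in CTRL and 6.31, 6.30, 6.19, 6.18 and 6.25 in Emul. Its log2 difference was -0.03 (adjusted p = 0.78, SE 0.044, exact permutation p = 0.52), with the lowest library in CTRL.

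Scap read 6.56, 6.54, 6.59 and 6.60 log2 CPM in CTRL and 6.52, 6.49, 6.51, 6.56 and 6.52 in Emul. Only Emul 4 reached into the CTRL range, and the log2 difference was -0.05 (SE 0.029; adjusted p = 0.40; exact permutation p = 0.040). Insig1, itself a target of SREBP, had a log2 fold change of -0.06 (SE 0.079), with CTRL 3 the lowest library of all 9 at 6.11. Insig2 gave -0.03 (SE 0.038) from the counts and 0.09 (SE 0.055) in the deposited table, so its direction differed between the measures.

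Sterol transport inside the cell had 3 genes, all lower, 2 of them (66.7%) at an unadjusted 0.05, against 49.2% and 8.99% of all genes. Npc1, the lysosomal membrane protein that exports cholesterol taken up with lipoproteins, was very even in CTRL (6.41, 6.37, 6.37 and 6.36 log2 CPM) and lower in each Emul library (6.31, 6.28, 6.15, 6.29 and 6.10). The groups did not overlap, and Emul 3 and 5 were set below the other Emul libraries. The fitted log2 difference was -0.15 (adjusted p = 0.17, SE 0.044; exact permutation p = 0.016).

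Npc2, the soluble lysosomal partner that hands cholesterol to NPC1, read 6.33, 6.23, 6.20 and 6.24 log2 CPM in CTRL and 6.10, 6.21, 6.05, 6.22 and 5.98 in Emul. Emul 2 and 4 reached the CTRL range and the other Emul libraries did not. The log2 difference was -0.14 (adjusted p = 0.23, SE 0.051, exact permutation p = 0.071). As in Npc1, Emul 5 was the lowest library and Emul 3 the second lowest. Stard4, a soluble sterol carrier, had a log2 fold change of -0.08 (SE 0.084) with CTRL values as far apart as 4.67 and 5.06.

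Genes of the LXR and export arm were mixed in sign, with 4 of 6 lower, 1 of them (16.7%) at an unadjusted 0.05. Of all genes, 49.2% were lower and 8.99% at that level, so both counts were near that background. Apoe, the main apolipoprotein of the brain and the most abundant of the 32 genes, read 10.63, 10.48, 10.67 and 10.52 log2 CPM in CTRL and 10.64, 10.65, 10.50, 10.59 and 10.74 in Emul. The groups were interleaved and differed by 0.05 on the log2 scale (adjusted p = 0.67, SE 0.049, exact permutation p = 0.46). Abca1, which loads cholesterol onto apolipoproteins, likewise gave 0.07 (SE 0.073), and its partner Abcg1 gave -0.05 (SE 0.032).

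Soat1, which esterifies cholesterol for storage, was the gene of this arm with the smallest p-value. Its log2 CPM was 5.32, 5.38, 5.39 and 5.45 in CTRL and 5.26, 5.19, 5.16, 5.34 and 5.24 in Emul. Only Emul 4 reached the CTRL range, and the fitted log2 difference was -0.15 (adjusted p = 0.17, SE 0.045; exact permutation p = 0.024). Of the LXR genes, Nr1h2 (LXR beta) gave -0.05 (SE 0.059), and Nr1h3 (LXR alpha) gave -0.25 with the widest error of all (SE 0.149), from 51 to 97 counts a library.

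**Figure D2:**
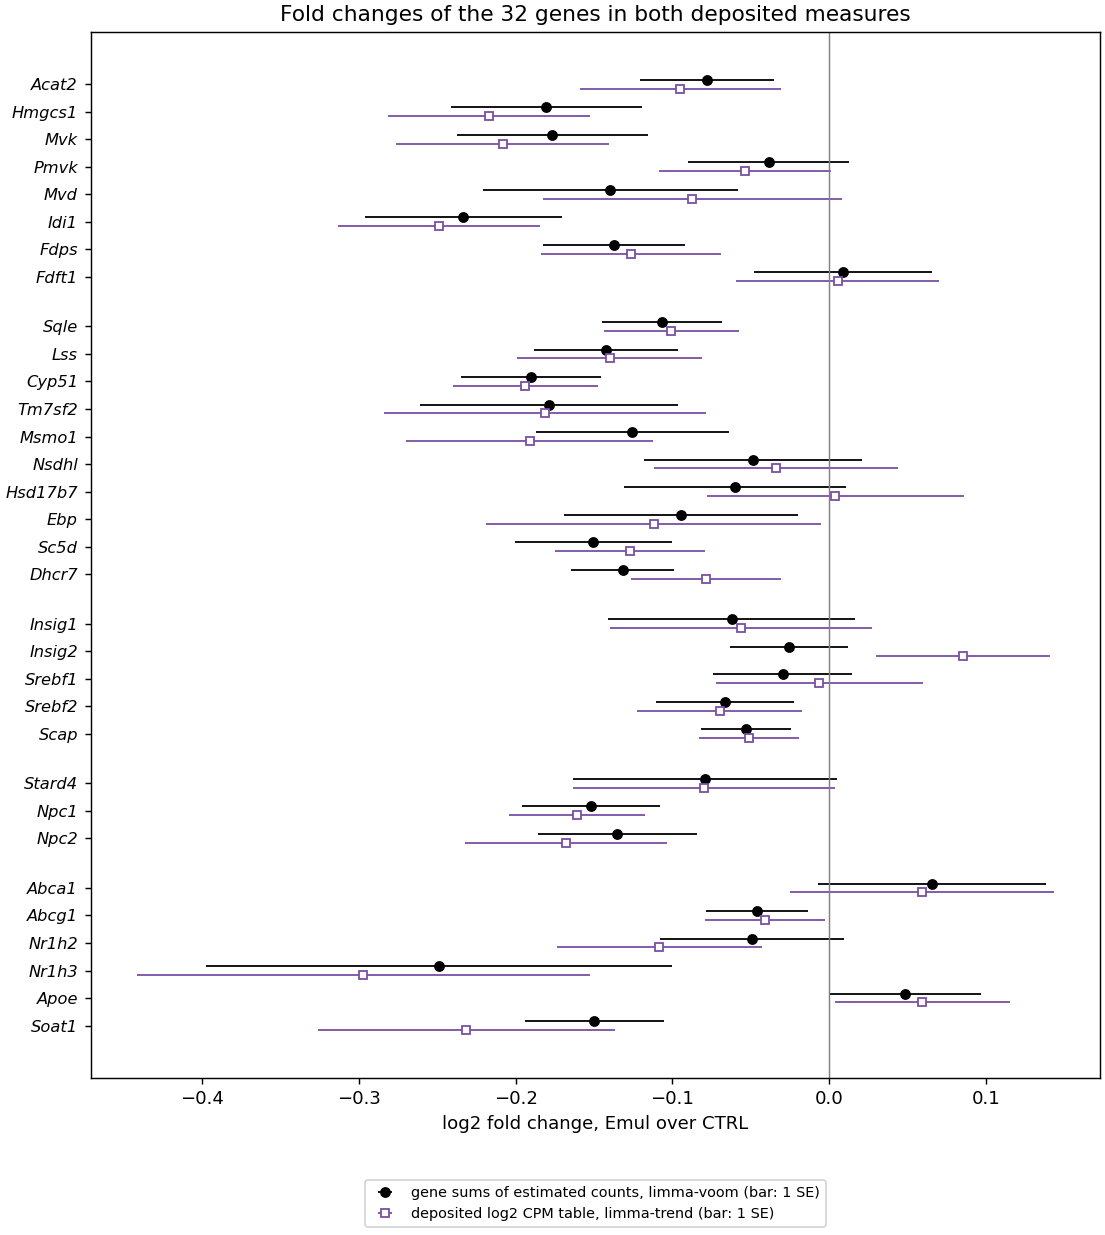
Log2 fold changes (x axis, Emul over CTRL) of the 32 genes (y axis) with bars of 1 SE, from counts summed per gene (filled circles) and from the deposited log2 CPM table (open squares). Both measures place most genes left of 0, and they fall on opposite sides of 0 for Insig2 and Hsd17b7.

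The deposited log2 CPM table, made by the authors from the same libraries, is no independent sample. In it 27 of 32 genes were lower and 5 higher, where 49.9% of all rows were lower, and the median log2 fold change was -0.098. At an unadjusted 0.05, 12 (37.5%) were lower and 0 higher, against 7.42% and 6.05% of all rows. Of these 12, 11 were also among the 12 from the gene counts; Msmo1 (-0.19) entered and Dhcr7 (-0.08) did not. Groups did not overlap for 5 genes (Hmgcs1, Idi1, Cyp51, Npc1 and Nr1h3), 15.6% against 2.98% of all rows, and none was separated the other way (2.37% of all rows, 5.35% in either direction). No gene passed an adjusted p-value of 0.05 or of 0.10, which 0.0343% and 0.0754% of rows did, and none reached the study's cutoff, which 0.685% did.

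Per unit of transcript length, the genes spanned a wide range of levels. Apoe had a mean of 3720 TPM, a measure scaled by transcript length and library, over the 9 libraries, followed by Hmgcs1 at 229, Srebf2 at 94.8, Fdps at 91.4, Msmo1 at 87.8 and Insig1 at 66.9 TPM. Of the 18 enzymes Hsd17b7 was lowest at 12.6 TPM, and Nr1h3 closed the order at 2.99 TPM, below its paralog Nr1h2 at 44.1 TPM. Srebf2, Fdps and Msmo1 overlapped in their library ranges (84.9 to 106, 80.8 to 107 and 73.6 to 111 TPM), so their order is not resolved. TPM served here for levels only: not scaled between libraries, the median gene had a log2 TPM ratio of -0.098 (Emul over CTRL), and all 32 means were lower in Emul on that scale, including Apoe and Abca1, which were higher in log2 CPM.

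**Figure D3:**
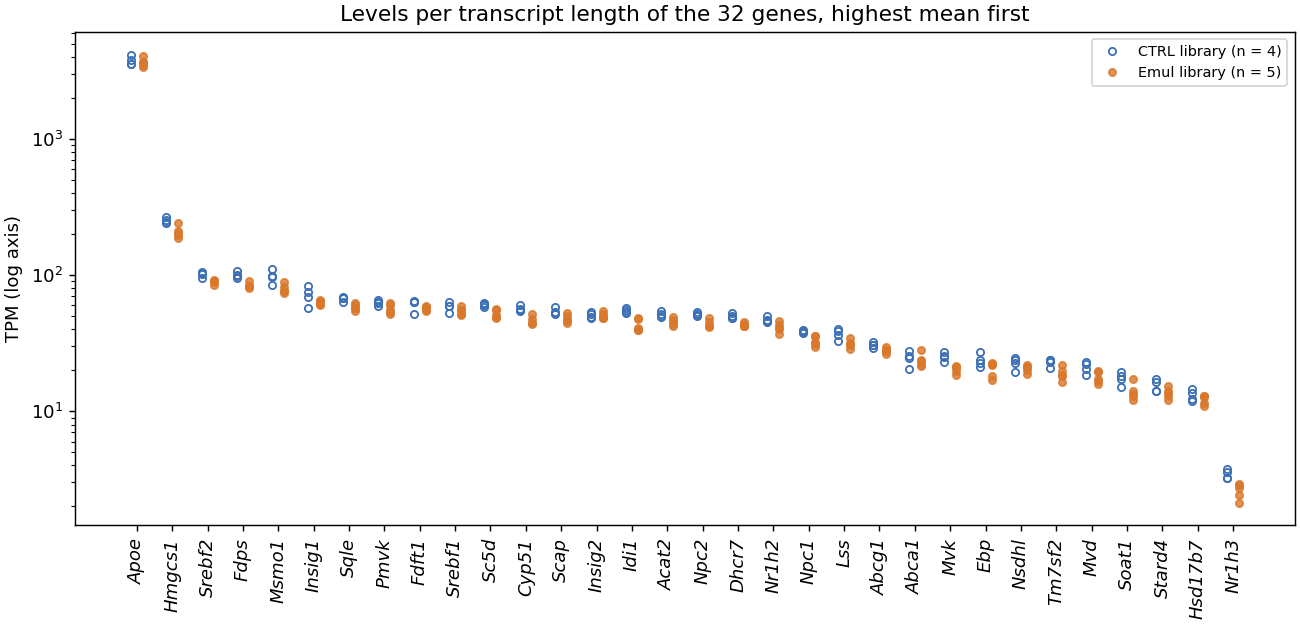
TPM of each gene (y axis, log scale) in every CTRL (open, n = 4) and Emul (filled, n = 5) library, genes ordered along the x axis by mean TPM. Apoe stands at 3720 TPM, most enzymes lie between 12.6 and 91.4 TPM with Hmgcs1 at 229, and Nr1h3 is lowest at 2.99; the TPM of the median gene is itself lower in Emul by 0.098 on the log2 scale.

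No difference in transcript usage passed adjustment for the number of transcripts compared. Shares of a gene's counts were compared for 66 transcripts that carried at least 5% of them, and 3 reached an unadjusted exact permutation p under 0.05, the smallest adjusted value being 0.52. These were Sqle-201 (91.0% ± 1.00 of Sqle counts in CTRL, SD, n = 4, and 92.8% ± 0.77 in Emul, n = 5, exact permutation p = 0.0079) and transcripts of Nr1h2 and Mvd. For Lss, 44.5% of the counts were assigned to Lss-204, annotated as a retained intron, in shares of 44.3% ± 3.14 (CTRL) and 44.9% ± 1.76 (Emul).

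Further genes of these pathways, from lists that do not hold the 32, were also tested. Of 51 tested, 32 were lower and 19 higher. At an unadjusted 0.05, 7 (13.7%) were lower and 1 was higher, beside the 8.99% and 6.84% of all genes. The median log2 fold change of the 51 was -0.03 and none passed the adjusted test. Among 11 fatty acid targets of SREBP, 10 were lower and 3 (27.3%) were lower at an unadjusted 0.05, against 49.2% and 8.99% of all genes. Scd2, the main stearoyl-CoA desaturase of brain, was at -0.12 (adjusted p = 0.18, SE 0.036). Among 8 genes of SREBP processing and sterol sensor degradation 5 were higher in Emul, with a median log2 fold change of 0.03. Only 1 (12.5%) was lower at an unadjusted 0.05, near the 8.99% of all genes. This was Erlin1, a membrane protein that restrains SREBP activation, at -0.22 (adjusted p = 0.15, SE 0.060). Its groups did not overlap, as in 3.8% of all genes in that direction.

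Among 17 genes of sterol and lipoprotein handling none was lower at an unadjusted 0.05. Only 1 was higher at that level, beside 6.84% of all genes, a count near that background. This was Lpl, lipoprotein lipase, at 0.17 (adjusted p = 0.28, SE 0.072). Of the 6 tested genes of sterol turnover and LXR response, 4 were lower and 2 higher. At an unadjusted 0.05, 1 (16.7%) was lower, beside 8.99% of all genes, a count near that background. This was Mylip, a ubiquitin ligase induced by LXR, at -0.26 (adjusted p = 0.18, SE 0.079).

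Markers of myelinating cells were lower in Emul as well. All 12 mature oligodendrocyte markers were lower in Emul, 10 of them at an unadjusted 0.05 (adjusted p = 0.17 to 0.47), against 8.99% of all genes. Their median log2 fold change was -0.26 beside -0.13 for the enzymes. Their summed level was 17616, 15679, 14464 and 14061 CPM in CTRL and 11790, 13786, 11447, 14872 and 10700 CPM in Emul. The sums of these markers overlapped between groups, as Emul 4 exceeded CTRL 3 and CTRL 4. In enzymes Emul 4 was below CTRL 4, and it was below CTRL 3 only without TMM scaling. CTRL 1 was highest and Emul 5 lowest in both sums.

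Markers of newly formed oligodendrocytes were lower in 5 of 5 genes, 2 at an unadjusted 0.05 (743.6 to 871.1 CPM in CTRL and 645.6 to 800.1 in Emul), and those of precursors in 3 of 4, none at that level (650.9 to 712.6 and 643.7 to 695.2 CPM). Astrocyte markers, from cells that also make cholesterol and most of the brain's Apoe, were lower in 8 of 9 genes, with a median log2 fold change of -0.046. Of these, 1 was lower at an unadjusted 0.05 (Gfap, an intermediate filament protein, -0.40, adjusted p = 0.10), beside 8.99% of all genes, a count near that background. The 9 markers summed to 4310.4 to 4500.1 CPM in CTRL and 4007.2 to 4271.7 in Emul. Like the enzyme sums, these did not overlap with library size scaling alone, and did overlap with TMM scaling. Neuronal markers were higher in 6 of 6 genes, 5 at an unadjusted 0.05, with sums of 3462.7 to 3663.7 CPM in CTRL and 3639.0 to 3899.6 in Emul. Of all genes, 8.99% were lower and 6.84% were higher at that level. No microglial, endothelial or tanycyte and ependymal marker passed that level, and no list had a marker at 0 in all libraries. In bulk tissue fewer cells of a type and less RNA per cell cannot be told apart, and the part of these markers in the lower enzyme values was not tested.

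**Figure D4:**
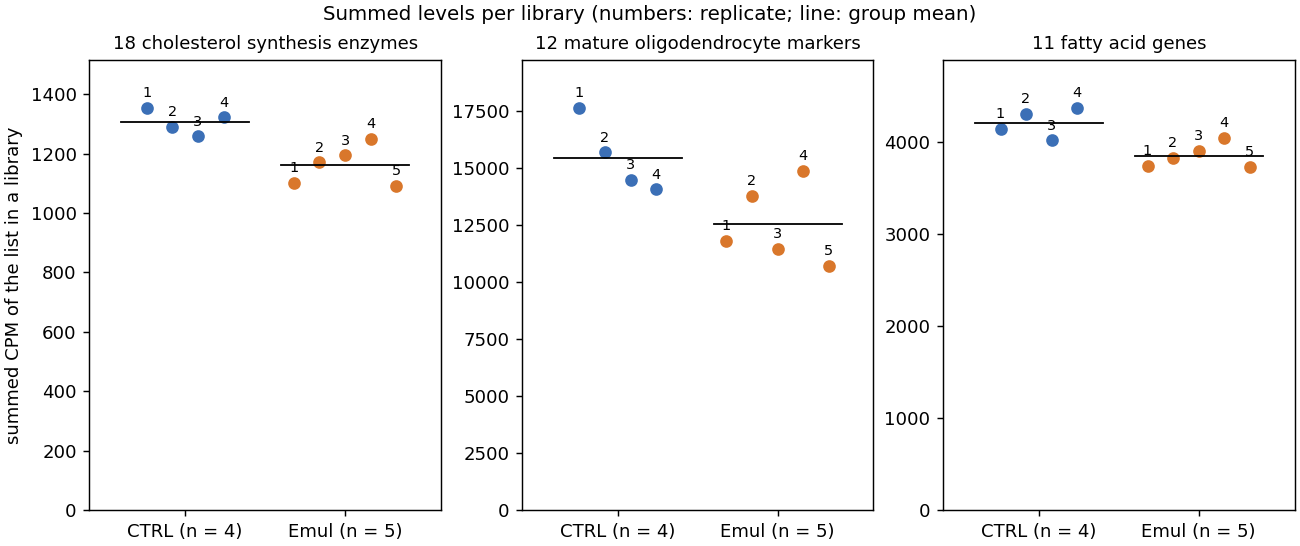
Summed CPM (y axis, from 0) of the 18 synthesis enzymes, the 12 mature oligodendrocyte markers and the 11 fatty acid genes in each library, numbered by replicate, with a line at the group mean. Scaled by library size alone, as plotted, the enzyme sums narrowly do not overlap (1257.8 CPM in the lowest CTRL, 1249.0 in the highest Emul). With TMM scaling they do. Emul 4 (14872 CPM) lies above 2 CTRL libraries in oligodendrocyte markers.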

How the data were processed

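RNA from the MBH of P21 male offspring (4 CTRL and 5 Emul libraries) was made into strand-specific mRNA libraries and sequenced in pairs by the authors. Per the file headers and the submitters' processing notes, the deposited estimated counts and TPM per transcript came from kallisto 0.46.1 on mm10 after FastQC 0.11.9, and the deposited log2 CPM table was made by the authors with edgeR 3.40.1. Transcripts were matched to GENCODE M21 (97.8% of 119414, leaving 1.20% to 1.27% of counts unmatched) and the estimated counts were summed per gene. Genes with CPM above 1 in at least 4 libraries (15340) were fitted with limma-voom (limma 3.58.1, edgeR 4.0.16, R 4.3.3; TMM scaling, no covariate, Benjamini-Hochberg adjustment), after the study's own filter and package, and the table with limma-trend (1 of 14593 rows had no name and was not used). Log2 CPM per library used a prior count of 2 and TMM scaling, and the summed CPM of a list used library size alone. For single values, exact permutation p-values (two-sided) came from the 126 ways to assign 4 of 9 libraries to CTRL. The fits were tested on simulated data. Values in every library are given for members lower at an unadjusted 0.05 without overlap, for the member of smallest p-value and of highest TPM in each role group, and for Srebf1 and Srebf2. The members, lists and tests were chosen with earlier results of these data known. Any pair of libraries of one group differed by more than sampling noise. The libraries have no label for dam, litter or batch, so p-values measure the spread between these samples. Promoter windows are RefSeq's (GRCm38.p6). One list of further sterol and isoprenoid enzymes enters the total over the pathway lists and is not reported here on its own.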

Additional observations from a re-analysis of the deposited data

Results flagged for a closer look

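In 5 of 64 gene and group combinations 1 library lay far from the others of its group by Dixon's gap ratio (its gap to the nearest library over the range of the group), where chance gives about 3.2. Hmgcs1 was high in CTRL 1 (log2 CPM 8.70, others 8.52 to 8.55, ratio 0.8464), and so was Fdps in the same library (5.88, others 5.72 to 5.74, ratio 0.8769). Srebf1 was low in CTRL 2 (6.15, others 6.30 to 6.33, ratio 0.8313). In Emul, Nsdhl was low in Emul 1 (4.36, others 4.50 to 4.55, ratio 0.7402) and Dhcr7 was high in Emul 2 (5.57, others 5.49 to 5.50, ratio 0.8647), the side nearest to CTRL. Without CTRL 1, Hmgcs1 had a log2 fold change of -0.14 (with all libraries -0.18) and Fdps of -0.098 (with all libraries -0.14).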

How the results depend on the processing

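Across 12 other settings and 9 fits that each left out 1 library, 666 of 672 member log2 fold changes kept their sign, for 29 of 32 genes in every setting tried; the exceptions were Fdft1, Insig2 and Hsd17b7, whose differences were small. The number of genes lower at an unadjusted 0.05 was 12, and ranged from 10 (without CTRL 4) to 15 (without CTRL 3) on leaving out 1 library, with medians of -0.14 to -0.078, and 0 were higher in each fit. Scaling by library size alone gave 18 genes and a median of -0.13; there 81.3% of all genes called at that level were lower, against 56.8% with TMM scaling. With the replicate number as a block (replicate block, Emul 5 without a partner) 9 genes were lower, 7 of them enzymes, median -0.085. The same-numbered libraries did not deviate together (r = -0.163, -0.015, 0.021 and -0.055), so the numbers were not taken as pairs. DESeq2 was the only setting tried in which any of the genes passed an adjusted p of 0.05, with 3 (Cyp51, adjusted p = 0.013; Idi1, 0.028; Dhcr7, 0.0496), where it called 341 of all genes against 18 by limma-voom; the cause was not tested. No gene reached the study's cutoff in any setting tried. Nr1h3 rests on 51 to 97 counts a library, the fewest of the 32 genes.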
